A study of Cocos nucifera with 22 samples.

Results

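Aquaporins are channel proteins that let water cross a membrane down an osmotic gradient, and they carry much of the water that moves through living plant cells rather than through cell walls. Plasma membrane intrinsic proteins (PIPs) sit in the outer membrane of the cell and fall into a PIP1 and a PIP2 group. In maize, PIP1 proteins need a PIP2 partner to reach that membrane. Tonoplast intrinsic proteins (TIPs) sit in the membrane of the vacuole, the large compartment that holds most of the water of a leaf cell and buffers the cytoplasm when the outside becomes salty. Here 4 aquaporin genes of coconut leaves were followed under salt: PIP1 (product name Plasma membrane intrinsic protein1), PIP1-2, PIP2-7 and TIP1-1. They were chosen by locus tag in a table of the study that pairs its tags with the gene identifiers of the deposited files, and all 4 were found among the 25247 genes listed in at least 1 library. All 4 passed the filter on low counts, which left 18840 genes.

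The leaves came from greenhouse seedlings of the Hainan tall and of the Aromatic dwarf, 2 coconut varieties, watered weekly with a Murashige and Skoog nutrient solution to which 200 mM NaCl was added. Leaves sampled at 0 h were the control, and sampling was repeated after 4 h, after 6 days and, following a second salty irrigation, after 10 days. Each variety gave 3 libraries at 0 h, 4 h and 6 days and 2 libraries at 10 days, 22 in all. No unsalted leaves of a later time are described in the methods, so salt, hour of the day and elapsed time cannot be told apart in any change from 0 h. Within a variety, libraries of the same number came from the same leaf, and the methods mention 3 leaves and 3 seedlings without saying how they correspond. The p-values given here treat the libraries as independent, and a fit blocked by leaf is given where it changes a call. The libraries were sequenced on 2 flow cells, named AV and AW in the labels, with 11 libraries each. AW held every 10-day library and AV every dwarf library of 0 h, so that the dwarf comparison of 10 days with 0 h ran between flow cells. Expected counts summed to between 2977359 and 3445467 in a library.

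PIP1, PIP2-7 and TIP1-1 lie on different chromosomes, and the place of PIP1-2 relative to them is not known. In the Hainan tall assembly used by RefSeq (ASM812446v1), whose locus tags carry the same numbers as those of the study, PIP1 (CN01_16G001060, COCehwD018038.1 in the count tables) lies on chromosome 16 from 18756172 to 18758074. PIP2-7 (CN01_10G001900, COCehwD010460.1) lies on chromosome 10 from 4374242 to 4375964, and TIP1-1 (CN01_07G009710, COCehwD014220.1) on chromosome 7 from 29484182 to 29484901. PIP1-2 (CN01_contig69169965G000010, COCehwD000169.1) lies at 840 to 1300 of a contig that was not anchored to a chromosome. The coding length was 849 bases for PIP2-7 and 630 for TIP1-1, against 465 for PIP1 and 369 for PIP1-2, whose model the study calls a fragment. The study's annotation gives both short models the same closest rice gene. The counts behind PIP1 and PIP2-7 were not whole (within 0.005) in any of the 22 libraries, as happens when reads match several genes and are divided among them, whereas those of PIP1-2 were whole in 20 and those of TIP1-1 in 15. Among 6676 genes with a mean expected count of at least 100 that were listed in every library, 44.9% had whole counts throughout. The 7 libraries in which the count of TIP1-1 was not whole were all 3 of tall 0 h, both of tall 10 days and replicates 1 and 3 of dwarf 0 h, with none of 4 h or 6 days. Which other genes shared reads with these genes was not identified here, and the part of divided reads in the changes was not tested.

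All 4 genes were among the more abundant transcripts of the leaf in every library. The study's table took genes partly by their FPKM level. PIP2-7 was in it for a high and steady level in the tall, and the other genes for a change there. Level and spread in the tall were thus partly fixed by that choice. On the FPKM scale, which corrects for gene length and read number, PIP2-7 was the steadiest, from 302.7 to 622 over the 22 libraries, and its highest value was 2.06 times its lowest. PIP1-2 spanned 214 to 559 (2.61 times) and PIP1 82.5 to 314 (3.80 times). TIP1-1 had the widest span, 126 to 996 (7.92 times). PIP2-7 was never below the 98.5th percentile of the genes listed in a library, while PIP1, the lowest of the set by median FPKM, ranged from the 91.1th to the 98.6th. PIP2-7 was the highest of the 4 in 14 libraries, TIP1-1 in 5 and PIP1-2 in 3. Ranks between genes depend on the model lengths. In the 3 libraries led by PIP1-2 its counts (383, 530 and 528) were below those of PIP2-7 (785, 905 and 1181). The 5 libraries led by TIP1-1 were all of 4 h, 3 from the dwarf and 2 from the tall.

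**Figure D1:**
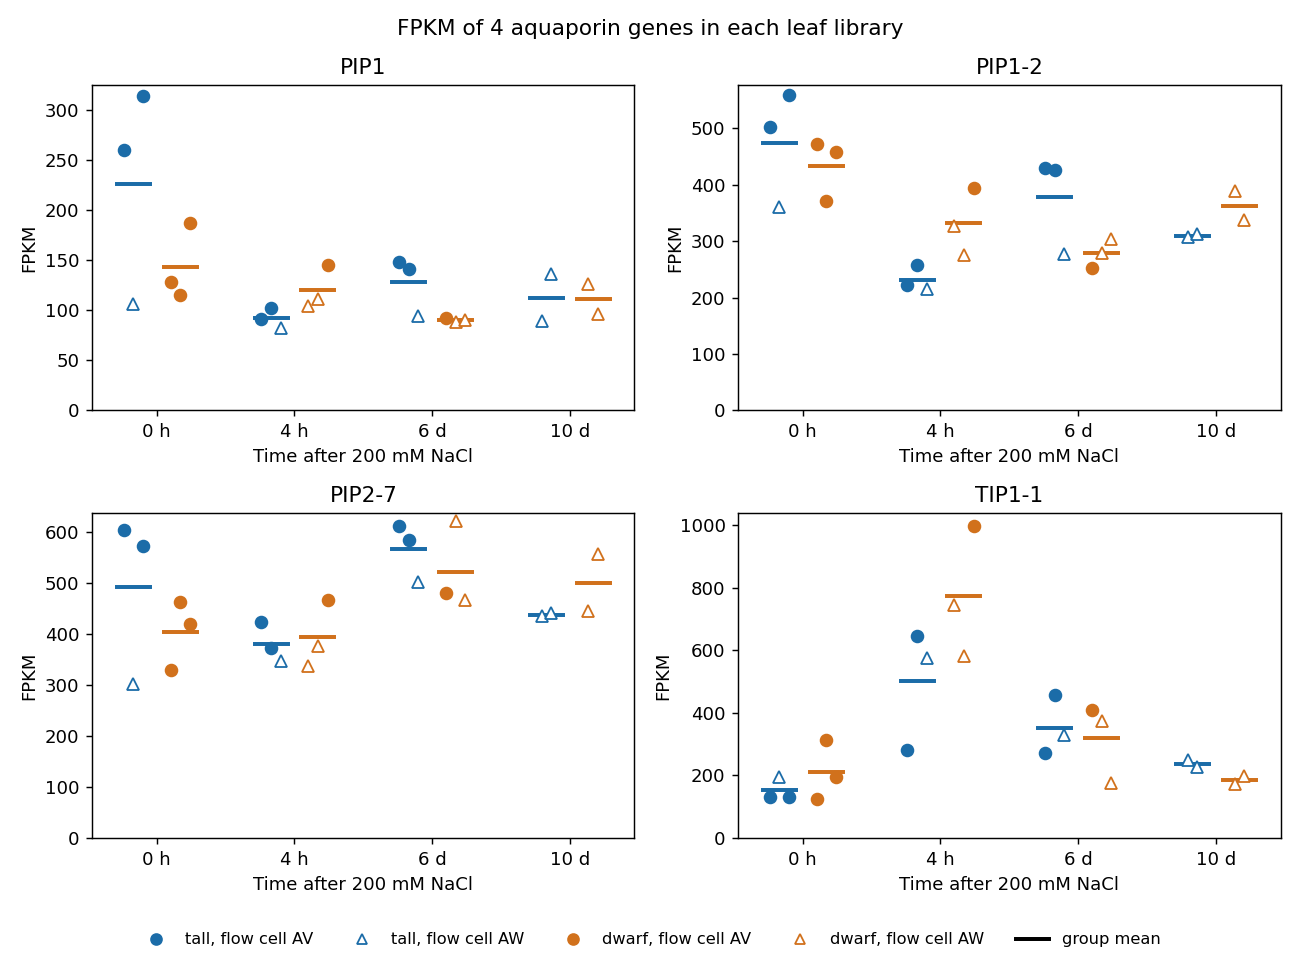
Level of each aquaporin gene (FPKM, linear axis from 0) against time after salt in the tall (blue) and the dwarf (orange), with 1 point per library, filled circles for flow cell AV, open triangles for AW and a bar for the group mean. TIP1-1 stands highest at 4 h in both varieties, with group means of 501 and 774 FPKM, whereas PIP1 and PIP1-2 fall at 4 h in the tall, and the open triangle of tall 0 h lies at 106 FPKM for PIP1 against 261 and 314 in the other two libraries.

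One control library stood apart from its group. Tall 0 h replicate 2, the only tall control on flow cell AW, was the lowest of its group for the 3 PIP genes and the highest for TIP1-1. More widely, in the 5 groups that held libraries of both flow cells, every AW library was below every AV library on FPKM in all 5 for PIP1, in 4 for PIP1-2 and PIP2-7 and in 2 for TIP1-1. Of 16767 genes compared in the same way, 0.98% were lower on AW in all 5 groups and 10.94% in at least 4. The flow cell was therefore a term of the fit, where its effect (AW minus AV, log2) was -0.52 for PIP1 (SE 0.16), -0.28 for PIP1-2 (SE 0.10), -0.29 for PIP2-7 (SE 0.13) and -0.06 for TIP1-1 (SE 0.24). None passed in the edgeR quasi-likelihood test (adjusted p 0.209 to 0.952), which called 0.0318% of all genes for the flow cell.

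A second point bears on the scale. At 6 and 10 days the FPKM of most genes was lower than at 0 h, with a median shift over all genes tested of -0.30 (log2, tall at 6 days), -0.23 (tall at 10 days), -0.27 (dwarf at 6 days) and -0.28 (dwarf at 10 days), each fitted with limma on log2(FPKM + 1). Over the same libraries the summed FPKM of 4 mesophyll transcripts (Rubisco small chain, Rubisco activase and 2 chlorophyll-binding proteins) was 36219 to 46093 at 0 h and 55395 to 91137 at 6 and 10 days. The rise of the sum lay mainly in the Rubisco small chain (18148 to 27273 FPKM at 0 h, 34667 to 65008 at 6 and 10 days). Rubisco activase, at a lower level, also rose, from 1924 to 4362 FPKM at 0 h to between 5926 and 11864 at 6 and 10 days. At 10 days the medians of the 2 chlorophyll-binding proteins were below those of 0 h in both varieties, with overlapping libraries. The edgeR fold changes below are on counts scaled by TMM, in which the median gene moved by at most 0.05 in these comparisons, and they are relative to that median gene. TMM-normalised CPM values, the counts of a gene relative to the scaled size of its library, are given beside FPKM where the scales part.

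TIP1-1, the vacuolar channel, rose at 4 h in both varieties. The tall libraries had 132, 194 and 131 FPKM at 0 h and 280.4, 647 and 575 at 4 h. In the dwarf the levels were 126, 313 and 194 FPKM at 0 h and 743, 583 and 996 at 4 h. Every 4 h library of the tall was above every 0 h library of the tall, and the same held in the dwarf. The group mean at 4 h was 3.29 times that of 0 h in the tall and 3.67 times in the dwarf. The log2 fold change was 1.74 (SE 0.39, adjusted p = 0.00503, edgeR) in the tall and 1.87 (SE 0.41, adjusted p = 0.00663) in the dwarf. These were the 98.5th and 98.4th percentiles of the fold changes of all genes. The rise was also seen within flow cells, by 1.86 (AV, 2 libraries against 2) and 1.57 (AW, 1 against 1) in the tall and by 2.18 (AV, 1 against 3) in the dwarf. Without dwarf 4 h replicate 3, the library with 996 FPKM, the dwarf change was 1.56 and no longer passed (adjusted p = 0.0806).

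After 4 h the mean level of TIP1-1 was lower in both varieties and uneven among libraries. At 6 days the tall libraries held 271, 457 and 329 FPKM, all above the 0 h libraries, and the change from 0 h was 1.51 (SE 0.39, adjusted p = 0.0117). That call was lost without tall 0 h replicate 1 (1.38, adjusted p = 0.0591) or replicate 3 (1.39, adjusted p = 0.0568). In the dwarf the 6-day libraries were at 409, 373 and 177 FPKM, of which the lowest lay within the range of 0 h. The dwarf change of 0.94 (SE 0.41) did not pass (adjusted p = 0.162, edgeR), although it did without dwarf 6-day replicate 3 (1.23, adjusted p = 0.0494). By 10 days the levels were 249 and 227 FPKM in the tall and 174 and 198 in the dwarf. Neither 10-day change passed, with 0.93 (95% interval -0.01 to 1.86) in the tall and 0.17 (-0.86 to 1.21) in the dwarf.

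Between 4 h and 6 days the dwarf groups of TIP1-1 did not overlap on the FPKM scale, with the highest 6-day library (409) below the lowest 4 h library (583). The fitted dwarf change was -0.93 (SE 0.38, adjusted p = 0.0647, edgeR) and passed with the leaf as a block (-1.01, adjusted p = 0.0409), with limma on log2(FPKM + 1) (-1.33, adjusted p = 0.00969) and without dwarf 4 h replicate 2 (-1.11, adjusted p = 0.0493). On that FPKM scale the median of all genes moved by -0.32. The corresponding tall change was -0.23 (SE 0.38, adjusted p = 0.704), and its 4 h and 6-day libraries overlapped.

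PIP1 and PIP1-2, both of the PIP1 group, fell at 4 h in the tall. PIP1 was at 261, 106 and 314 FPKM at 0 h and at 90.9, 102 and 82.5 at 4 h. For PIP1-2 the tall values were 501, 360.4 and 559 FPKM at 0 h and 222, 257 and 214 at 4 h. All 4 h libraries were below all 0 h libraries for both genes, although for PIP1 the gap between the lowest control (106) and the highest 4 h library (102) was small. The log2 fold change was -1.20 for PIP1 (SE 0.24, adjusted p = 0.00229, edgeR) and -0.99 for PIP1-2 (SE 0.15, adjusted p = 0.000306). With TIP1-1, this made 3 of 4 aquaporins called in the tall at 4 h, 2 lower and 1 higher, where 20.6% of all genes were called, 9.73% lower and 10.9% higher. Within flow cells the PIP1 difference was -1.53 on AV (2 libraries against 2) and -0.35 on AW (1 against 1), and that of PIP1-2 was -1.11 and -0.75. Without tall 0 h replicate 2 the changes were -1.50 and -1.08 and both passed.

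The study had selected PIP1, PIP1-2 and TIP1-1 for its table by their change in these same tall libraries. It had selected PIP2-7 for a high and steady level there. The tall directions, the tall calls and their number beside the share of all genes are therefore no independent evidence of a change. The dwarf libraries took no part in that selection by the study. The aquaporins were, however, chosen here with earlier results of these data known.

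In the dwarf at 4 h, neither PIP1 gene passed. PIP1 stood at 128, 115 and 187 FPKM at 0 h and 104, 111 and 145 at 4 h, with overlapping groups and a change of 0.04 (95% interval -0.50 to 0.59, adjusted p = 0.940, edgeR). PIP1-2 stood at 472, 370.05 and 458 FPKM at 0 h and 326, 275 and 394 at 4 h, a change of -0.24 (-0.58 to 0.10, adjusted p = 0.363). The PIP1 estimate rests on the flow cell term, since 2 of the 3 dwarf 4 h libraries ran on AW and all controls on AV: without that term it was -0.29, and within AV (1 library against 3) it was -0.03. TIP1-1 was thus the 1 of 4 aquaporins called in the dwarf at 4 h, in a comparison where 13% of all genes were called and 5.81% were called higher.

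Both PIP1 genes had come back up in the tall by 6 days. PIP1 then measured 148, 142 and 94.6 FPKM and PIP1-2 429, 426 and 277. Against 4 h the change was 0.74 for PIP1 (SE 0.24, adjusted p = 0.0304, edgeR) and 0.97 for PIP1-2 (SE 0.15, adjusted p = 0.000198). The 6-day libraries of PIP1-2 were all above those of 4 h, while the lowest of PIP1 (94.6) lay within its 4 h range. The PIP1-2 call held under every alternative tried, whereas that of PIP1 was lost under 8 of 15, among them without replicate 1 or 2 of 4 h (0.64 and 0.73) and without replicate 1, 2 or 3 of 6 days (0.73, 0.77 and 0.74). Against 0 h neither passed at 6 days, with -0.46 (95% interval -0.95 to 0.03) for PIP1 and -0.02 (-0.33 to 0.29) for PIP1-2. Without tall 0 h replicate 2 the PIP1 difference from 0 h was -0.75 and passed (adjusted p = 0.0175).

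In the dwarf both genes were low in FPKM at 6 days, PIP1 with 92.5, 87.9 and 90.7 and PIP1-2 with 253, 279 and 303, all below the 0 h libraries. In CPM the picture differed for PIP1, whose 6-day libraries (48.8, 45.3 and 42.6) overlapped with 0 h (51.8, 47.9 and 77.1), but not for PIP1-2 (104, 111 and 110.2 against 148, 120 and 146). The fitted changes from 0 h were -0.02 (95% interval -0.57 to 0.53) and -0.15 (-0.50 to 0.19), and neither passed. These estimates rest on the flow cell term, since all controls but only 1 of the 6-day libraries ran on AV. Within AV (1 library against 3) the differences were -0.27 for PIP1 and -0.41 for PIP1-2. From 4 h to 6 days the dwarf changes were -0.07 for PIP1 and 0.08 for PIP1-2, without a call.

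At 10 days PIP1 was at 89.2 and 136 FPKM in the tall and 127 and 96.6 in the dwarf, and PIP1-2 at 307 and 312 in the tall and 388 and 337 in the dwarf. None of the 4 changes from 0 h passed in edgeR (adjusted p 0.301 to 0.652). The dwarf change of PIP1 was 0.465 (95% interval -0.184 to 1.114) and -0.051 without the flow cell term, so its direction rests on that term. On FPKM the 2 tall libraries were below all tall controls for PIP1-2, where the fitted change was -0.15 (SE 0.18).

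PIP2-7, a PIP2-group channel, was not called at 4 h in either variety. Tall levels were 604, 303 and 572 FPKM at 0 h and 423, 373 and 347 at 4 h, and dwarf levels were 330.3, 462 and 420 at 0 h and 337, 376 and 467 at 4 h. The groups overlapped in both varieties, and the log2 changes of -0.31 (95% interval -0.72 to 0.10) and 0.11 (-0.34 to 0.56) did not pass.

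At 6 days PIP2-7 was higher than at 4 h in both varieties. The tall libraries had 612, 585 and 501 FPKM and those of the dwarf 480, 622 and 466. Scaled as in the test, the tall went from between 272 and 325 CPM at 4 h to between 509.5 and 563 CPM at 6 days, and the dwarf from between 265 and 351 to between 413 and 607, without overlap in either. On FPKM the dwarf groups overlapped. The change was 0.86 (SE 0.20, adjusted p = 0.00404, edgeR) in the tall and 0.76 (SE 0.20, adjusted p = 0.00584) in the dwarf, the latter no longer passing with limma on log2(FPKM + 1) (0.41, adjusted p = 0.103). For the step from 4 h to 6 days, 3 of 4 aquaporins were called in the tall, all higher, where 25.4% of all genes were called and 13% were higher. In the dwarf 1 of 4 was called, higher, against 36.1% of all genes called and 18% called higher.

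Set against 0 h, PIP2-7 rose in the dwarf at 6 days (0.87, SE 0.22, adjusted p = 0.0233, edgeR) and at 10 days (0.90, SE 0.25, adjusted p = 0.0379). The dwarf controls were at 254, 365 and 327 CPM, below the 6-day libraries (480, 607 and 413) and the 10-day libraries (436 and 527). On FPKM the 10-day libraries (445 and 558) overlapped with the controls. Both calls were lost with limma on FPKM and without dwarf 0 h replicate 1, the lowest control (0.73, adjusted p = 0.0844, and 0.76, adjusted p = 0.120). They were also lost without dwarf 0 h replicate 3 (0.89, adjusted p = 0.0522, and 0.92, adjusted p = 0.0605). The 6-day call was lost without dwarf 6-day replicate 1 (1.09, adjusted p = 0.0552), and the 10-day call without replicate 1 or 2 of 10 days (1.04, adjusted p = 0.0967, and 0.76, adjusted p = 0.182). The one dwarf 6-day library on AV differed from the controls by 0.61, while the 10-day change had no value within a flow cell and was 0.61 without the flow cell term (adjusted p = 0.0785). PIP2-7 was the 1 of 4 aquaporins called at each of these times, higher in both, where 7.97% (6 days) and 8% (10 days) of all genes were called, and 4.36% and 4.03% were called higher.

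In the tall the PIP2-7 change at 6 days was 0.55 (SE 0.20, adjusted p = 0.0542, edgeR) and passed with the leaf as a block (0.57, adjusted p = 0.0207). In CPM its 6-day libraries lay above its controls (449, 237 and 435), and without the low control, replicate 2, the change was 0.32 (adjusted p = 0.247). TIP1-1 was the 1 of 4 called in the tall at 6 days, higher, where 21.1% of all genes were called and 11.2% were called higher, and at 10 days 0 of 4 were called against 8.08% of all genes. The tall PIP2-7 libraries of 10 days had 435 and 441 FPKM, a change of 0.31 (95% interval -0.19 to 0.81).

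**Figure D2:**
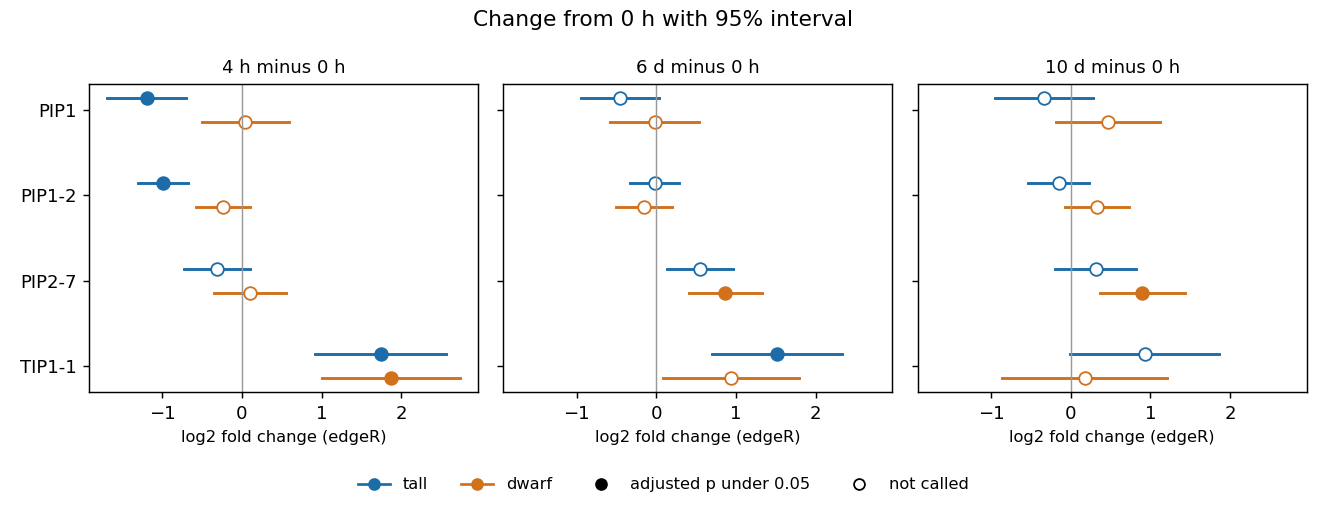
Log2 fold change of each gene from 0 h (edgeR, horizontal axis) at the 3 later times in the tall (blue) and the dwarf (orange), with lines for the 95% interval and filled points for an adjusted p under 0.05. TIP1-1 is filled to the right of 0 in both varieties at 4 h (1.74 and 1.87), PIP1 and PIP1-2 are filled to the left in the tall at 4 h (-1.20 and -0.99), and PIP2-7 is filled in the dwarf at 6 and 10 days (0.87 and 0.90).

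The proportions among the 4 genes shifted with TIP1-1. It made up 8.31% to 20.1% of their summed FPKM in the tall at 0 h and 27.6% to 47.2% at 4 h. In the dwarf its part was 11.9% to 24.8% at 0 h and 43.3% to 49.7% at 4 h. The ranges did not overlap in either variety. At 10 days it was down to 20.3% and 23.1% in the tall and 15.3% and 16.7% in the dwarf. The summed FPKM of the 3 PIP genes was 769 to 1445 in the tall at 0 h and 644 to 736 at 4 h, again without overlap, whereas in the dwarf the sums of 931 to 1064 at 0 h and 762 to 1007 at 4 h overlapped. PIP1-2 stayed at 1.78 to 3.68 times the level of PIP1 in all 22 libraries. These parts and ratios depend on the lengths of the gene models, of which those of PIP1 and PIP1-2 are short.

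**Figure D3:**
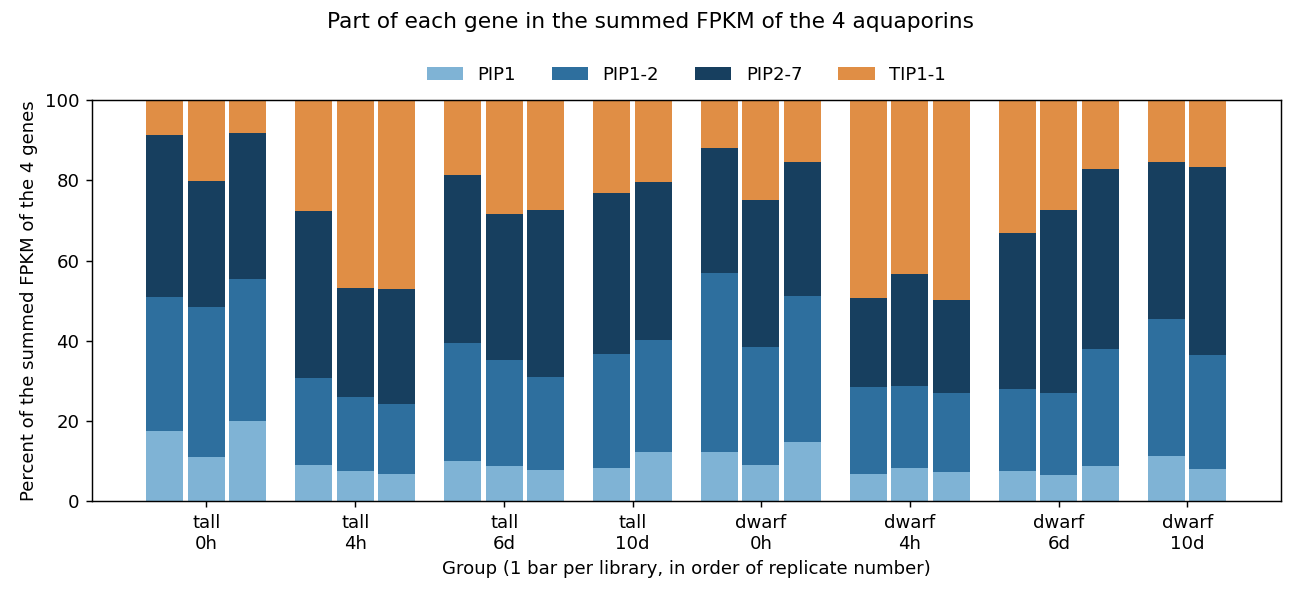
Percent of the summed FPKM of the 4 aquaporins taken by each gene, with 1 stacked bar per library and the libraries grouped by variety and time. The TIP1-1 segment (orange, top) is widest at 4 h, from 27.6% to 47.2% in the tall and from 43.3% to 49.7% in the dwarf, and narrowest in tall replicates 1 and 3 of 0 h.

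The varieties were compared directly at each time. By the edgeR test, 0 of 4 aquaporins were called between tall and dwarf at any of the 4 times, in comparisons (in order of time) that called 0.409%, 1.06%, 0.0265% and 0.0743% of all genes. At 0 h the widest difference was that of PIP1, 0.72 higher in the tall (95% interval 0.23 to 1.22, adjusted p = 0.144). It was larger without tall 0 h replicate 2 and then passed (0.95, adjusted p = 0.0251), so the control level of PIP1 turned on that library. PIP1-2 differed at 0 h by 0.17 (-0.14 to 0.49), PIP2-7 by 0.31 (-0.10 to 0.73) and TIP1-1 by -0.48 (-1.32 to 0.36).

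At 4 h both PIP1 genes were lower in the tall, and their libraries did not overlap with those of the dwarf on FPKM. For PIP1-2 the difference was -0.58 (95% interval -0.90 to -0.26, adjusted p = 0.0721, edgeR), and it passed in DESeq2 (-0.59, adjusted p = 0.00885) and without dwarf 4 h replicate 2 (-0.66, adjusted p = 0.0478). PIP1 differed by -0.52 (-1.03 to -0.002, adjusted p = 0.326). TIP1-1 was at 280.4 to 647 FPKM in the tall and 583 to 996 in the dwarf, and the difference of -0.61 (-1.41 to 0.19) did not pass. At 6 days the differences were between -0.01 and 0.31 and at 10 days between -0.31 and 0.28 over the 4 genes, with the widest interval for TIP1-1 at 10 days (-0.71 to 1.26). On FPKM the PIP1 libraries of the tall at 6 days (94.6 to 148) were all above those of the dwarf (87.9 to 92.5). At 10 days the tall libraries were below those of the dwarf for PIP1-2 and PIP2-7 and above them for TIP1-1, with 2 libraries on each side. None of these differences passed. So few libraries can separate without a difference, and the share of all genes that did not overlap between the varieties is not given here.

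**Figure D4:**
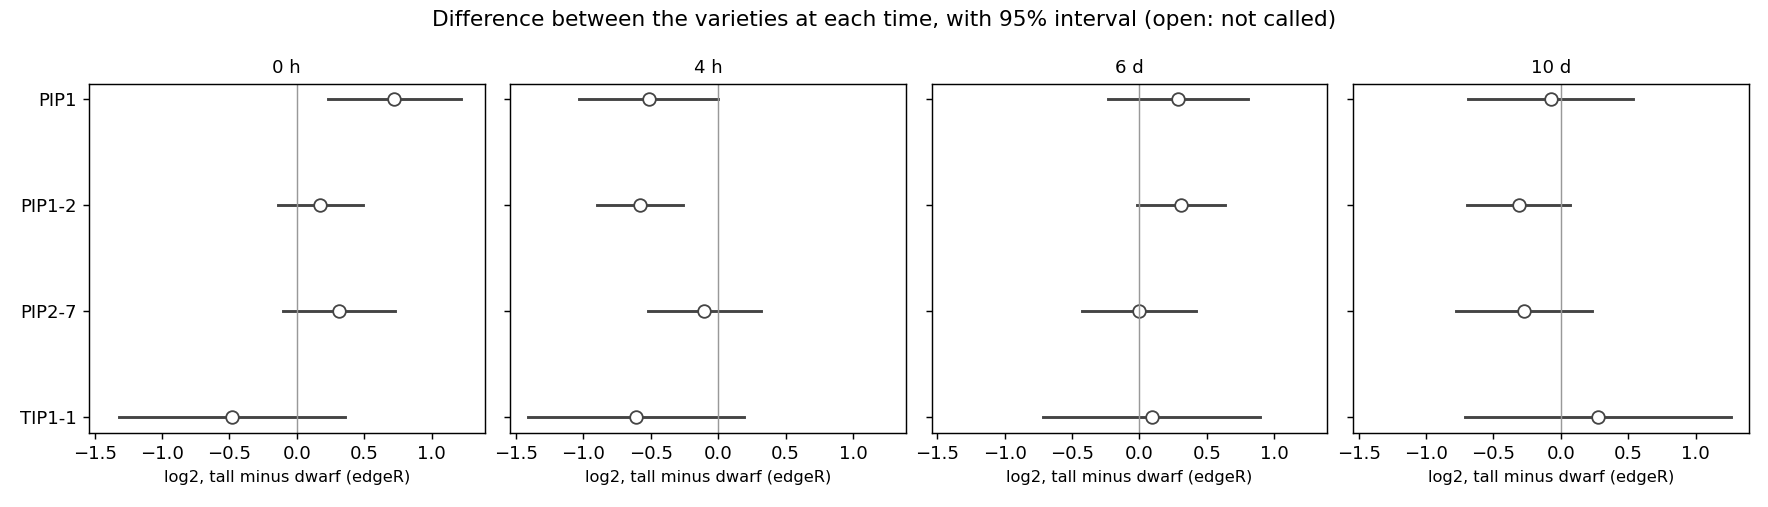
Difference between the varieties (tall minus dwarf, log2, edgeR) for each gene in 4 panels from 0 h to 10 days, with lines for the 95% interval. All points are open, since none passed. PIP1 is to the right of 0 at 0 h (0.72) and to the left at 4 h (-0.52), and the intervals of TIP1-1 are the widest at each time.

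The change from 0 h was also compared between the varieties. The PIP1 change at 4 h was 1.24 lower on the log2 scale in the tall than in the dwarf (-1.24, 95% interval -1.96 to -0.52), and that of PIP1-2 0.75 lower (-0.75, -1.21 to -0.29). Neither passed over all genes in edgeR (adjusted p = 0.156 and 0.171), a test that called 0.0584% of genes. Both passed in DESeq2 (-1.26, adjusted p = 0.0340, and -0.78, adjusted p = 0.0255), which called 260 genes against 11 in edgeR, and that of PIP1 passed in edgeR without tall 0 h replicate 2 (-1.40, adjusted p = 0.0432). The fall of these genes in the tall at 4 h was thus not shown to be particular to the tall. For TIP1-1 the difference of the changes was -0.13 (-1.31 to 1.04), an interval that leaves room for a change more than 1 log2 unit smaller or larger in one variety. At 6 and 10 days no difference of changes passed for the 4 genes (adjusted p 0.675 to 0.875, edgeR), and 0 genes in all were called (1720 and 1381 genes had an unadjusted p under 0.05, and DESeq2 called 14 and 0).

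Sorted by mean FPKM over the 8 groups, TIP1-1 was led by dwarf 4 h (774 ± 208, SD, n = 3) and tall 4 h (501 ± 194), followed by tall and dwarf at 6 days, and ended with tall 0 h (152 ± 36.2). PIP1 ran from tall 0 h (227 ± 108) and dwarf 0 h (143 ± 38.3) down to tall 4 h (92.0 ± 9.99) and dwarf 6 days (90.4 ± 2.33). PIP1-2 ran from tall 0 h (474 ± 102) to tall 4 h (231 ± 23.0), and PIP2-7 from tall 6 days (566 ± 57.8) to tall 4 h (381 ± 38.8). Neighbours in these orders overlapped in their libraries throughout, except tall 10 days and dwarf 6 days for PIP1-2.

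Over the 22 libraries PIP1 and PIP1-2 had the most similar profiles of any pair (Pearson r = 0.845 and Spearman rho = 0.853 on log2(FPKM + 1)), with r = 0.892 within the 11 tall and 0.813 within the 11 dwarf libraries. PIP1-2 and TIP1-1 had a negative correlation (r = -0.516), with r = -0.677 in the tall and -0.404 in the dwarf. PIP2-7 with TIP1-1 had r = -0.196. PIP2-7 and PIP1 had r = 0.680 in the tall and r = -0.389 in the dwarf. These correlations describe libraries that share leaves, times and flow cells.

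Similar profiles were sought among 646 named genes of the study's table with a mean of at least 10 FPKM, the aquaporins included. Those most like PIP1 after PIP1-2 were the vacuolar proton-pumping pyrophosphatase CN01_11G008020 (r = 0.801), which acidifies the vacuole, and membrane steroid-binding protein 1 CN01_07G012260 (0.747). Those most like PIP1-2 after PIP1 were bax inhibitor 1 CN01_08G006710 (0.787), which limits cell death, and a DnaJ co-chaperone CN01_scaffold000873G000020 (0.763). The nearest to PIP2-7 were 2 subunits of the cytochrome b6-f complex of photosynthetic electron transport (CN01_06G010400, 0.682, and CN01_14G010220, 0.673) and Actin-101 CN01_15G001540 (0.664). For TIP1-1 they were the protease oryzain alpha chain CN01_11G001510 (0.815), methionine aminotransferase CN01_13G004400 (0.786) and the ribosomal protein L37a CN01_10G003160 (0.768).

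Of 16 other transporters of the study's table, 0 rose and 5 fell in the tall at 4 h (median -0.60, with 0.00 over all genes), and 1 rose and 5 fell in the dwarf (median -0.58). Of all genes, 20.6% were called in that tall comparison and 13% in that of the dwarf. The strongest by p in the tall were inositol transporter 1 CN01_scaffold015887G000040 (-2.17, adjusted p = 7.30e-06, edgeR), which in Arabidopsis exports inositol from the vacuole, and the pyrophosphatase named above (-1.16, adjusted p = 0.00136). In the dwarf they were the same inositol transporter (-1.45, adjusted p = 0.000751) and the potassium channel AKT2 CN01_01G020060 (-2.18, adjusted p = 0.00551), a phloem channel in Arabidopsis.

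By 6 days 7 of the 16 transporters were higher and 3 lower than at 0 h in the tall, led by the chloroplast triose phosphate translocator CN01_03G011030 (2.14, adjusted p = 0.000470, edgeR), which exports photosynthetic sugar phosphate, and auxin transporter-like protein 2 CN01_04G000380 (-1.42, adjusted p = 0.00241). In the dwarf 3 were higher and 0 lower, led by the same translocator (1.46, adjusted p = 0.0152) and sulfate transporter 3.1 CN01_03G001380 (1.43, adjusted p = 0.0304). At 10 days the tall had 3 higher and 2 lower, with sulfate transporter 3.1 at 1.90 (adjusted p = 0.0128) and the translocator at 1.56 (adjusted p = 0.0175), and the dwarf had 1 higher, sulfate transporter 3.1 (1.56, adjusted p = 0.0448). From 4 h to 6 days 10 rose and 2 fell in the tall and 8 rose and 2 fell in the dwarf, with sulfate transporter 3.1 at 2.86 (adjusted p = 6.67e-05) and 3.36 (adjusted p = 8.05e-06). The inositol transporter came before it by p in the tall (1.63, adjusted p = 5.23e-05), and high affinity sulfate transporter 2 CN01_13G002790 came after it in the dwarf (2.15, adjusted p = 1.84e-05). The share of all genes called was 21.1% in the tall and 7.97% in the dwarf at 6 days, 8.08% and 8% at 10 days, and 25.4% and 36.1% from 4 h to 6 days. The median change of the 16 was 0.69 and 0.11 at 6 days, 0.74 and 0.45 at 10 days, and 1.47 and 1.37 from 4 h to 6 days, tall first.

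Of 8 genes that make or accompany protective solutes, 4 fell and 1 rose in the tall at 4 h (median -1.55), and 5 fell in the dwarf (median -1.74), where 20.6% and 13% of all genes were called. Both varieties were led by the same 2 inositol-3-phosphate synthases, which start inositol synthesis. CN01_03G006570 changed by -2.68 (adjusted p = 8.72e-05, edgeR) in the tall and -2.75 (adjusted p = 0.000167) in the dwarf, and CN01_02G007310 by -1.56 (adjusted p = 0.00179) and -1.88 (adjusted p = 0.00142).

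At 6 days 5 of the 8 were above 0 h in the tall, led by the dehydrin COR410 CN01_07G014820 (1.16, adjusted p = 0.00534, edgeR) and desiccation-related protein PCC6-19 CN01_06G008750 (2.43, adjusted p = 0.00864). In the dwarf 1 of 8 was, the late embryogenesis abundant protein Lea5 CN01_scaffold014710G000030 (0.94, adjusted p = 0.0284). At 10 days 1 was in the tall (PCC6-19, 2.62, adjusted p = 0.0228) and 0 in the dwarf. Between 4 h and 6 days 7 of 8 rose in both varieties, with CN01_03G006570 at 3.76 (adjusted p = 2.74e-06) in the tall and 2.72 (adjusted p = 1.59e-05) in the dwarf, and CN01_02G007310 at 2.09 (adjusted p = 0.000118) and 1.95 (adjusted p = 0.000101). Of all genes, 21.1% (tall) and 7.97% (dwarf) were called at 6 days, 8.08% and 8% at 10 days, and 25.4% and 36.1% from 4 h to 6 days, in which last step 13% and 18% were called higher. The median change of the 8 was 1.12 and 0.63 at 6 days, 1.10 and 0.95 at 10 days and 2.38 and 1.995 from 4 h to 6 days. Between the varieties 0 of the 16 transporters passed at any time and 1 of these 8, Lea5 at 0 h (1.07 higher in the tall, adjusted p = 0.0489). The same comparisons called 0.409% (0 h), 1.06% (4 h), 0.0265% (6 days) and 0.0743% (10 days) of all genes. The study chose the 16 transporters and these 8 genes by their level or change in the tall.

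In a leaf sample, a change in the share of a cell type and a change of RNA per cell cannot be told apart. The 4 mesophyll markers and 6 vascular markers (AKT2, 2 phloem protein 2-like genes, sucrose synthase 1, cellulose synthase and laccase-6) were above 0 in every library. At 4 h the summed mesophyll level was 20952 to 26732 FPKM in the dwarf, below its controls (36629 to 46093), and 47462 to 49465 in the tall, above its controls (36219 to 45724). Of the 4 markers 2 fell in the dwarf and 0 were called in the tall at 4 h by the edgeR test, where 13% and 20.6% of all genes were called. The summed vascular level at 4 h was 1425 to 1489 FPKM in the dwarf and 1169 to 1908 in the tall, within or overlapping the ranges of 0 h (883 to 1661 and 1185 to 1914). Of the 6 vascular markers, 1 rose and 1 fell in the tall at 4 h and 1, AKT2, fell in the dwarf. The other 5 had positive fitted changes in the dwarf, of which none passed. The median change in the dwarf at 4 h was -0.93 for the mesophyll and 1.08 for the vascular markers, and in the tall 0.03 and 0.16, with 0.00 over all genes in both. TIP1-1 rose at 4 h in both varieties. On FPKM all 4 mesophyll markers of the dwarf were below their controls at 4 h, of which edgeR called 2. The share of all genes that separated in this way is not given here. The higher tall sum lay in the Rubisco small chain (18148 to 25298 FPKM at 0 h, 31069 to 32773 at 4 h). Chlorophyll a-b binding protein 21 was lower in the tall (5240 to 8066, then 4375 to 5054). Rubisco activase and the other chlorophyll-binding protein overlapped with their tall controls. The part of tissue composition in the aquaporin changes was not tested.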

How the data were processed

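Leaf RNA of 22 samples was enriched for mRNA with oligo(dT) and read single-end. The authors aligned clean reads to the gene models with Bowtie and quantified them with RSEM (BWA was used for the scaffolds, and no tool versions were stated). An expected count and an FPKM per gene are in the deposited tables, in which genes without a count are left out and were taken as 0. The paper's table of selected genes paired locus tags and product names with gene identifiers, and the lists of other genes and the candidates for similar profiles were drawn from it. None of its expression values were used.

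Expected counts were rounded and tested by quasi-likelihood in edgeR 4.0.16 under R 4.3.3, with TMM scaling, filterByExpr, and the 8 groups of variety and time plus flow cell in 1 fit (13 residual degrees of freedom). The threshold was an adjusted p (Benjamini-Hochberg, over all 18840 genes tested) under 0.05. The SE was derived from the log2 fold change and its F statistic.

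Alternatives were no flow cell term, the leaf as a block, RLE scaling, no filter, at least 50 counts, only the libraries compared, limma 3.58.1 on log2 of FPKM with 1 or 0.1 added, DESeq2 1.42.0, and leaving out each library. The lists of other genes were tested in the first fit alone. The pairing by leaf, stated in the methods, was checked on deviations from group means, whose correlation between same-numbered libraries averaged 0.25 for the tall (12 of 15 pairs above 0.1) and 0.10 for the dwarf (8 of 15).

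The text names the 4 aquaporins, the 2 list members with the smallest adjusted p among those called in each comparison, and the 3 genes most correlated with each aquaporin. The members and lists were chosen with earlier results of these data known. Replicates had Spearman correlations of 0.941 to 0.964 and a chi-square per gene of 5.50 to 18.4, where 1 is counting noise. Aquaporin counts were 112 to 2045 per library, so that spread between libraries, not counting, limits the precision. A second PIP2-7 copy named by the study was not analysed here, because no gene identifier is paired with it.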

Additional observations from a re-analysis of the deposited data

How the results depend on the processing

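With groups of 2 or 3 libraries, most calls outside the tall at 4 h turned on a single library. The 3 calls of the tall at 4 h kept direction and passed under all 15 alternatives. So did the rise of PIP1-2 and PIP2-7 from 4 h to 6 days in the tall. PIP1, PIP1-2 and TIP1-1 had been selected by their change in the tall libraries. The stability of their tall calls is therefore no independent evidence of a change. The leaf block could not be run for levels between the varieties, since each leaf belongs to 1 variety. Elsewhere the replicate block changed the calls of the tall at 6 days (2 called, with PIP2-7) and of the dwarf from 4 h to 6 days (2, with TIP1-1), and no other call. The causes of the changes below were not tested.

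The tall count at 6 days was also 2 with RLE scaling, only the libraries compared and DESeq2 (PIP2-7 added), with limma at either pseudocount (PIP1 added, -0.71), and 0 to 2 when 1 library was left out. The dwarf count at 4 h was 0 to 1 when 1 library was left out. The dwarf count at 6 days was 0 with only the libraries compared and with limma, and 0 to 2 without 1 library. It was lost without 0 h replicate 1 or 3 or 6-day replicate 1. The dwarf count at 10 days was 0 without the flow cell term, with only the libraries compared and with limma, and 0 to 1 without 1 library. It was lost without 0 h replicate 1 or 3 or either 10-day replicate. From 4 h to 6 days in the dwarf it was 2 with at least 50 counts and with DESeq2, 1 with limma (TIP1-1 in place of PIP2-7), and 1 to 2 without 1 library (TIP1-1 added without 4 h replicate 2). The PIP1 rise from 4 h to 6 days in the tall was lost without the flow cell term (0.76, adjusted p = 0.0646), with limma and without any of 5 libraries. Between the varieties the count was 0 to 1 without 1 library at 0 h (PIP1 without tall replicate 2) and at 4 h (PIP1-2 without dwarf replicate 2), and 1 at 4 h with at least 50 counts or DESeq2. For the difference of changes at 4 h it was 2 in DESeq2 and 0 to 1 without 1 library (PIP1 without tall 0 h replicate 2, -1.40, adjusted p = 0.0432).

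Differences that changed sign were not called, and not all of them were small. In the first fit PIP1 in the dwarf at 10 days was at 0.465 (95% interval -0.184 to 1.114). PIP2-7 in the tall at 10 days was at 0.311. Without the flow cell term the dwarf changes were -0.285 for PIP1 and -0.074 for PIP2-7 at 4 h and -0.051 for PIP1 at 10 days. With only the libraries compared PIP1 was at -0.11 in the dwarf at 4 h, and with the leaf block at 0.065 in the dwarf at 6 days. With limma, TIP1-1 was at -0.012 in the dwarf at 10 days and PIP1-2 at -0.24 in the dwarf from 4 h to 6 days. PIP2-7 between the varieties at 6 days was 0.098 without the flow cell term, 0.002 with RLE or DESeq2, 0.094 with only the libraries compared and 0.014 with limma. Leaving out 1 library gave these ranges: in the tall PIP1-2 -0.106 to 0.073 (6 days), PIP2-7 -0.010 to 0.40 (10 days) and TIP1-1 -0.539 to 0.009 (4 h to 6 days). In the dwarf they were PIP1 -0.087 to 0.284 and PIP2-7 -0.030 to 0.223 (4 h), PIP1 -0.15 to 0.22 and PIP1-2 -0.248 to 0.069 (6 days), TIP1-1 -0.099 to 0.586 (10 days), and PIP1 -0.134 to 0.095 and PIP1-2 -0.011 to 0.245 (4 h to 6 days). Between the varieties they were PIP2-7 -0.17 to 0.21 and TIP1-1 -0.21 to 0.42 (6 days) and PIP1 -0.39 to 0.18 (10 days), and for the difference of changes TIP1-1 -0.54 to 0.19 (4 h) and PIP1-2 -0.082 to 0.246 (6 days).

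The number of genes called over the whole table moved by more than 1.5 times in several comparisons. Of the changes from 0 h, the tall at 10 days (1522) had 2657 without the flow cell term and 109 to 1618 without 1 library. The dwarf at 4 h (2457) had 618 with only the libraries compared and 968 to 2844 without 1 library. The dwarf at 6 days (1502) had 2773 without the flow cell term, 484 with only the libraries compared, 2691 or 2603 with limma and 123 to 1808 without 1 library. The dwarf at 10 days (1507) had 3514, 436, 2288 or 2318 and 81 to 1944 in the same order. Without 1 library the tall had 2133 to 3482 at 4 h (3885), 2226 to 3934 at 6 days (3971) and 3064 to 4009 from 4 h to 6 days (4786). Between the varieties, the alternatives other than leaving out a library gave 0 to 396 at 0 h (77), 11 to 609 at 4 h (199), 0 to 27 at 6 days (5) and 7 to 281 at 10 days (14). Leaving out 1 library gave 2 to 354, 5 to 315, 0 to 3 and 0 to 1. The difference of changes at 4 h (11) ran from 0 with only the libraries compared to 260 in DESeq2 and from 0 to 212 without 1 library. At 6 and 10 days (0 each) it reached 14 in DESeq2 and 1 with limma.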
